A study of Mus musculus with 12 samples.

Results

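The 29 genes described here make, sense, take up, move and export cholesterol. They were chosen by name and not by a cut on measured values, though earlier results of these data were known. They are 18 enzymes of synthesis, 5 regulators of the SREBP pathway (Srebf1, Srebf2, Scap, Insig1, Insig2), 3 genes of uptake and intracellular transport (Stard4, Npc1, Npc2) and 3 of export and storage (Abca1, Abcg1, Soat1). All 29 were matched by gene identifier among the 48795 genes of the count table, and all 29 were among the 14756 genes that passed the filter on low counts. RNA had been sequenced from leukemic long-term hematopoietic stem cells (LTHSC), the stem cells at the top of blood formation, isolated by sorting of marrow; the strain was C57BL/6 and the disease chronic myeloid leukemia (CML). The groups were Prx1_Cre, in which Cre is driven in mesenchymal stroma, Tek_Cre, in which Cre is driven in endothelial and blood-forming cells, and No_Cre, in which mice carried no Cre, with 4 libraries each. The labels speak of Cre lines only: they state neither the Cxcl12 genotype nor the leukemia model, and in them the mice are named once as recipients and once as primary animals. Whether the sorted leukemic cells carried Cre themselves is not stated, and the labels give no age, no sex and no treatment.

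Cells build cholesterol from acetyl-CoA in the endoplasmic reticulum. The first enzymes make mevalonate and turn it into farnesyl pyrophosphate, from which squalene, lanosterol and at last cholesterol are formed. When sterol is scarce, SCAP carries the SREBP transcription factors to the Golgi, where they are cut free to switch on these enzymes, while INSIG proteins hold SCAP back when sterol is plentiful. SREBP2, made by Srebf2, acts mainly on cholesterol genes, and SREBP1, made by Srebf1, mainly on fatty acid genes. Excess sterol leaves through the ABCA1 and ABCG1 transporters, whose genes are switched on by the liver X receptors, and loss of these transporters in mice is known to expand hematopoietic stem and progenitor cells.

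The 4 Prx1_Cre libraries held 22385590 to 28253956 counts each, the Tek_Cre libraries 15715603 to 28860324 and the No_Cre libraries 19988050 to 24007569. Levels are given as CPM, counts scaled to a common library size with TMM factors. The marker lists of other cells differed by group. Summed over 10 genes listed as LTHSC markers, libraries stood at 1044 to 1119.8 CPM in Prx1_Cre, 1937 to 2028 CPM in Tek_Cre and 1819 to 1871 CPM in No_Cre. The largest part was Kit, with means of 595, 977 and 857 CPM in the same order, and Cd34 had means of 232, 283 and 427 CPM. The sum therefore weighs Kit most, and each of the 10 genes had counts in every group. Neither Kit nor Cd34 is particular to LTHSC, so the sum does not measure LTHSC content. Against No_Cre, 9 of the 10 fell in Prx1_Cre and 1, Mllt3, rose, while 7 rose and 2, Hlf and Cd34, fell in Tek_Cre. Among all tested genes, 36.7% rose and 39.0% fell in Prx1_Cre against No_Cre, and 26.4% rose and 26.5% fell in Tek_Cre. For 20 proliferation genes the sums were 6695 to 6917, 3644 to 3740.0 and 4319 to 4386 CPM in the same order, and for 8 erythroid markers 3348 to 3421, 134 to 146 and 345 to 357 CPM. The 5 early neutrophil markers summed to 16047 to 18294 CPM in Prx1_Cre, 2118 to 2352 CPM in Tek_Cre and 7144 to 7406 CPM in No_Cre. The 5 B cell markers summed to 28.0 to 33.0, 178 to 188 and 91.6 to 97.7 CPM, with Pax5 at 0 in both Cre groups. The 6 plasma cell markers summed to 269 to 275, 2374 to 2445 and 744 to 765 CPM, and the 8 macrophage markers, of which Marco and Trem2 were under 1 CPM in every group, to 84.1 to 87.8, 40.4 to 43.9 and 46.4 to 48.7 CPM. In Prx1_Cre most of the macrophage sum was Vcam1. Of the 6 macrophage markers tested, 1 rose in Tek_Cre against No_Cre, C1qb, at 23.6 against 13.1 CPM. The 4 that fell there included C1qc, at 0.282 against 2.65 CPM. The 4 endothelial markers summed to 54.6 to 60.7, 76.4 to 81.5 and 98.5 to 103 CPM, most of it Pecam1, with Cdh5 under 1 CPM in every group. The 5 stromal markers summed to 44.0 to 47.0, 57.9 to 70.4 and 76.5 to 80.9 CPM, most of it Pdgfrb, with Lepr and Pdgfra under 1 CPM in every group. Immunoglobulin genes took 0.296 to 0.310% of counts in Prx1_Cre, 25.2 to 26.02% in Tek_Cre and 7.31 to 7.71% in No_Cre. Mitochondrial genes took 0.282 to 0.456%, 0.105 to 0.126% and 0.117 to 0.142% in the same order. In sorted bulk cells, more cells of a type and more RNA per cell cannot be told apart, and the part of these markers and shares in the results was not tested.

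Libraries of a group were compared by a chi-square of their counts over genes, divided by its degrees of freedom, where 1 is sampling noise alone. Prx1_Cre replicate 4 stood apart, at 11.5 to 14.3 from the other Prx1_Cre libraries, which lay 1.80 to 2.22 from each other. Tek_Cre replicate 4 was 3.23 to 7.80 from its group, where the other Tek_Cre libraries lay 1.91 to 3.71 apart, and all No_Cre pairs lay between 2.16 and 3.56. Without Prx1_Cre replicate 4, 10 of the 29 genes rose and 10 fell in Prx1_Cre against No_Cre, and 12 were higher and 12 lower in Prx1_Cre than in Tek_Cre. Without Tek_Cre replicate 4, 10 rose and 7 fell in Tek_Cre against No_Cre, and 10 were higher and 12 lower in Prx1_Cre than in Tek_Cre. Over the fits that each left out 1 library, 5283 to 5523 of all genes rose and 5654 to 5962 fell in Prx1_Cre against No_Cre. In Tek_Cre against No_Cre these counts were 3594 to 4252 and 3671 to 4444. Between the Cre groups 5492 to 5750 were higher and 5770 to 6038 lower in Prx1_Cre. The fit of all 12 libraries tested 14756 genes. The design text calls the replicates biological, but pairs without these 2 libraries lay no more than 3.71 apart, and the labels do not say how the cells of 1 replicate were kept apart from those of another. The adjusted p-values therefore measure only the spread between these libraries, which may be technical.

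**Figure D1:**
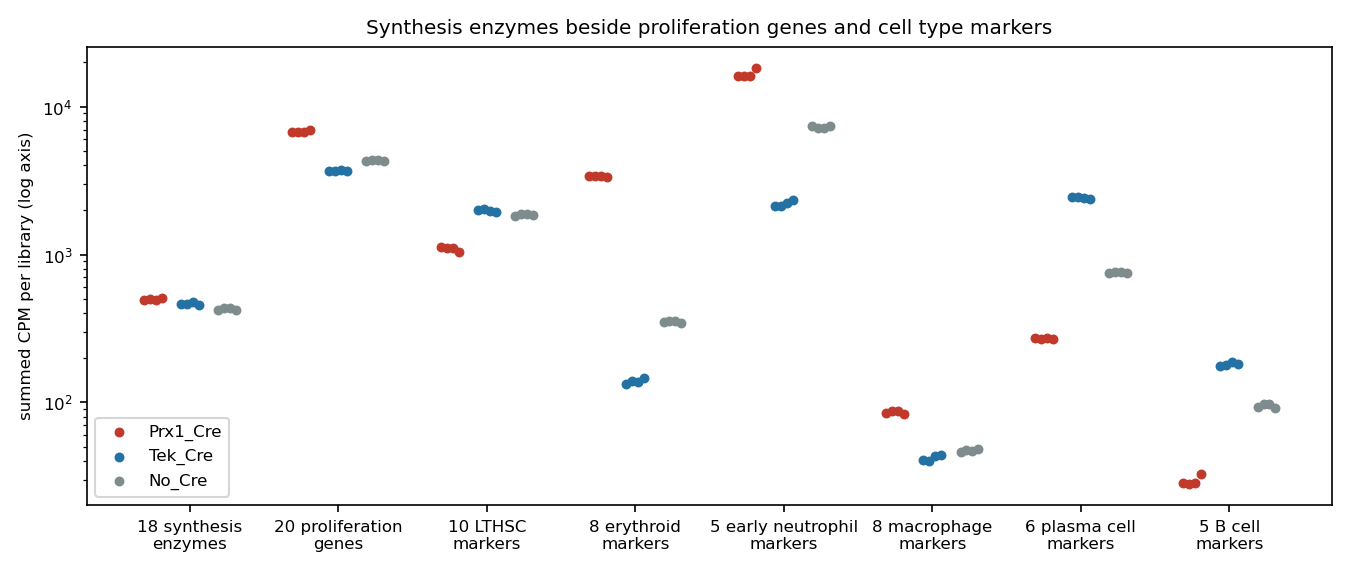
Summed CPM per library (log axis) of the 18 synthesis enzymes beside proliferation genes and markers of LTHSC, erythroid cells, early neutrophils, macrophages, plasma cells and B cells, with 1 point per library for Prx1_Cre, Tek_Cre and No_Cre. The synthesis enzymes lie close together in the 3 groups, while erythroid and plasma cell markers lie far apart.

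Most of the 29 cholesterol genes were called in each comparison, in both directions, and so were most of all genes. In Prx1_Cre against No_Cre, 11 of the 29 rose and 10 fell (edgeR quasi-likelihood test, Benjamini-Hochberg adjusted p under 0.05 over all genes tested), where 36.7% of all tested genes rose and 39.0% fell, 75.6% in all. In Tek_Cre against No_Cre, 10 rose and 6 fell, against 26.4% and 26.5% of all genes, 52.9% in all. Prx1_Cre against Tek_Cre had 12 higher and 12 lower, against 37.8% and 39.8% of all genes, 77.6% in all. The members' shares lie near those of all genes, so a call alone says little here. The median size of change among the 29 genes was 0.34 on the log2 scale in Prx1_Cre against No_Cre, beside 0.48 over all genes. It was 0.22 beside 0.22 in Tek_Cre against No_Cre and 0.36 beside 0.53 in Prx1_Cre against Tek_Cre.

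A stricter rule asks for a change beyond 1.5-fold (glmTreat in edgeR, adjusted p under 0.05). In Prx1_Cre against No_Cre it kept 1 gene higher, Mvd, and 4 lower, Abca1, Npc1, Srebf2 and Abcg1, where 12.5% and 18.3% of all genes passed. Prx1_Cre against Tek_Cre kept 3 higher, Hsd17b7, Tm7sf2 and Lss, and 3 lower, Abca1, Srebf2 and Npc1, where 15.1% and 20.4% of all genes passed. For Tek_Cre against No_Cre it kept 0 of the 29, where 7.08% of all genes passed as higher and 5.35% as lower, 12.4% in all. Without adjustment, 1 of the 29 had a glmTreat p under 0.05 in edgeR. With DESeq2, 0 of the 29 passed 1.5-fold at an adjusted p under 0.05. Hsd17b7 came nearest in the edgeR fit of Tek_Cre against No_Cre (adjusted p = 0.0529 against 1.5-fold) and passed in 11 of 20 alternative settings. Libraries of the groups did not overlap for 19 of the 29 genes in Prx1_Cre against No_Cre (68.6% of all genes), 14 in Tek_Cre against No_Cre (48.7%) and 21 in Prx1_Cre against Tek_Cre (69.3%).

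**Figure D2:**
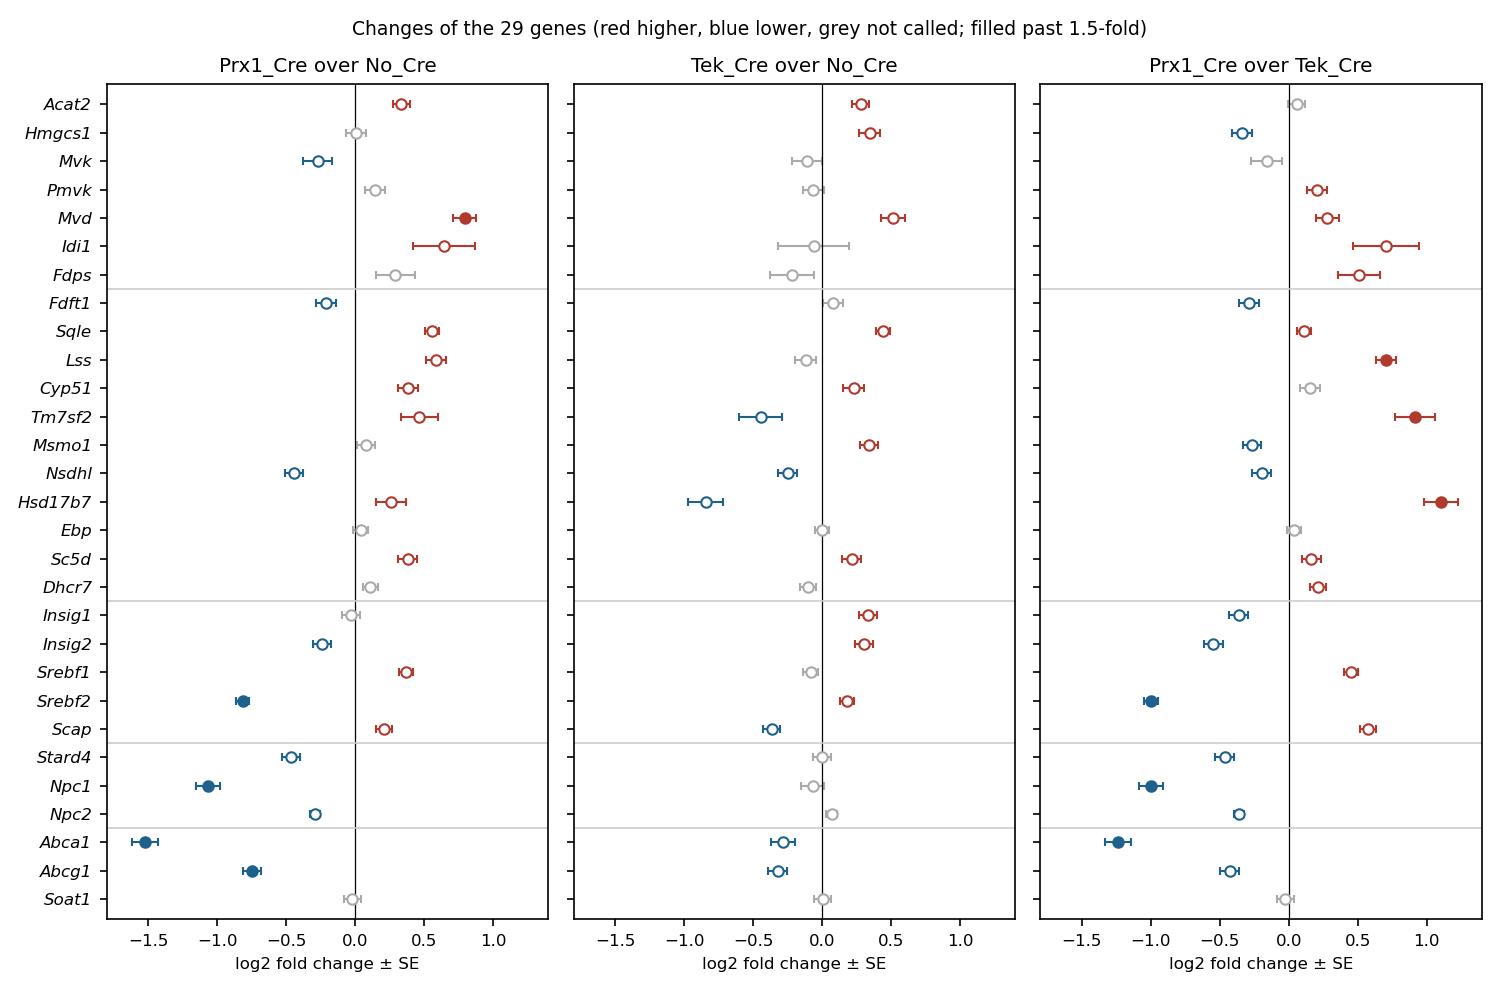
Log2 fold change ± SE (horizontal axis) of each of the 29 genes in Prx1_Cre over No_Cre, Tek_Cre over No_Cre and Prx1_Cre over Tek_Cre, grouped from top to bottom as mevalonate enzymes, squalene and sterol enzymes, regulators, uptake and transport, and export and storage. Red marks genes that rose, blue those that fell, grey those not called, and filled symbols those past 1.5-fold; the farthest point is Abca1 at -1.52 in Prx1_Cre over No_Cre.

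Of the 18 synthesis enzymes, 9 rose and 3 fell in Prx1_Cre against No_Cre, with a median log2 fold change of 0.28 where that of all genes was -0.02 and 36.7% of them rose and 39.0% fell. In Tek_Cre against No_Cre 7 rose and 3 fell, with a median of -0.03 beside 0.00 for all genes, of which 26.4% rose and 26.5% fell. Between the Cre groups 10 were higher and 4 lower in Prx1_Cre than in Tek_Cre, with a median of 0.16 beside -0.01 for all genes, of which 37.8% were higher and 39.8% lower. Summed over the 18 enzymes, libraries stood at 494 to 505 CPM in Prx1_Cre, 457 to 478 CPM in Tek_Cre and 422 to 438 CPM in No_Cre. The sums did not overlap between groups, and Prx1_Cre was the highest. They weigh abundant enzymes such as Sqle most, which had means of 79.8, 73.7 and 54.3 CPM in the same order. A higher sum is therefore not a rise of all enzymes, and the median change in Tek_Cre against No_Cre was -0.03. Of the 20 proliferation genes, 20 rose in Prx1_Cre against No_Cre and 16 fell in Tek_Cre against No_Cre; their part in the sums was not tested. The comparisons with No_Cre share the No_Cre libraries, so their values are set side by side and not as independent evidence.

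Among the 7 mevalonate enzymes, Mvd had the largest change in each comparison with No_Cre. It encodes mevalonate diphosphate decarboxylase, which makes isopentenyl pyrophosphate (chromosome 8, 122433601 to 122443422, ENSMUSG00000006517.5; coordinates of genes are on GRCm38 from GENCODE M21). Mvd stood at 15.6, 17.1, 16.2 and 18.4 CPM in the Prx1_Cre libraries, 12.3, 14.7, 14.3 and 14.2 CPM in the Tek_Cre libraries and 10.1, 9.38, 8.97 and 10.3 CPM in the No_Cre libraries. No library of one group reached into another, with Prx1_Cre highest and No_Cre lowest. Mvd rose 1.73-fold in Prx1_Cre against No_Cre (log2 fold change 0.79 ± 0.08, adjusted p = 6.93e-09) and 1.43-fold in Tek_Cre against No_Cre (log2 fold change 0.51 ± 0.09, adjusted p = 2.73e-05). It was also higher in Prx1_Cre than in Tek_Cre (log2 fold change 0.28 ± 0.08, adjusted p = 0.00347). Its call past 1.5-fold in Prx1_Cre against No_Cre ended with upper-quartile factors (adjusted p = 0.0859) and with DESeq2 (adjusted p = 0.0709).

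Hmgcs1, the synthase that makes HMG-CoA at the head of the pathway, followed another order. Its values were 27.9, 25.8, 26.4 and 22.4 CPM in the Prx1_Cre libraries, 31.6, 33.5, 33.1 and 32.0 CPM in the Tek_Cre libraries and 27.5, 28.0, 23.1 and 23.4 CPM in the No_Cre libraries. All 4 Tek_Cre libraries lay above all others, and Prx1_Cre and No_Cre overlapped. Hmgcs1 rose in Tek_Cre against No_Cre (log2 fold change 0.35 ± 0.07, adjusted p = 0.000421) and was lower in Prx1_Cre than in Tek_Cre (log2 fold change -0.34 ± 0.07, adjusted p = 0.000222), while Prx1_Cre against No_Cre gave 0.01 ± 0.07 (adjusted p = 0.940). Acat2, the thiolase that joins acetyl-CoA units, rose in both Cre groups, at 43.0 ± 1.91 CPM in Prx1_Cre and 41.4 ± 2.40 CPM in Tek_Cre against 34.0 ± 2.10 CPM in No_Cre (SD, n = 4 each). Mvk, mevalonate kinase, fell in Prx1_Cre against No_Cre (log2 fold change -0.27 ± 0.11, adjusted p = 0.0252) with overlapping libraries, a call lost without Prx1_Cre replicate 2, without Prx1_Cre replicate 3 and without No_Cre replicate 2 (adjusted p = 0.0689 to 0.107). Pmvk, the next kinase, was called only between the Cre groups among these comparisons (log2 fold change 0.21 ± 0.07, adjusted p = 0.0141) with overlapping libraries, and that call was lost without Prx1_Cre replicate 4 (adjusted p = 0.0651) and with upper-quartile factors (adjusted p = 0.113).

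Idi1, the isomerase of isopentenyl pyrophosphate, and Fdps, which makes farnesyl pyrophosphate, were the lowest of the 29 genes per annotated exon length in Tek_Cre and No_Cre. For Fdps this place depends on the length used, as its annotated exons span 4208 bases and its longest protein-coding transcript 1382. Idi1 had 1.47 ± 0.192 CPM in Prx1_Cre, 0.917 ± 0.147 CPM in Tek_Cre and 0.952 ± 0.276 CPM in No_Cre, and Fdps 3.0 ± 0.306, 2.09 ± 0.252 and 2.46 ± 0.155 CPM in the same order (SD, n = 4 each). Their counts are uncertain, because transcripts of other genes match 91.4% of the Fdps transcript and 33.3% of the Idi1 transcript at 95% identity or more over at least 50 bases. How reads shared between such copies were counted is not stated. Idi1 rose in Prx1_Cre against No_Cre (log2 fold change 0.64 ± 0.23, adjusted p = 0.0129), a call lost without No_Cre replicate 1 (adjusted p = 0.0634). The same limit holds for Acat2 (65.6% matched, mostly by Acat3) and for Fdft1 (54.7%, where the gene also overlaps Ctsb on the other strand by 774 exon bases).

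The 11 enzymes from squalene synthesis onwards split by group. Sqle, squalene epoxidase, a rate-limiting oxygen-using step, stood at 78.5, 81.4, 82.4 and 77.0 CPM in the Prx1_Cre libraries, 79.2, 67.7, 77.0 and 70.8 CPM in the Tek_Cre libraries and 56.6, 52.2, 53.6 and 54.8 CPM in the No_Cre libraries. Every Prx1_Cre and Tek_Cre library exceeded every No_Cre library, and the Cre groups overlapped. Sqle rose in Prx1_Cre against No_Cre (log2 fold change 0.56 ± 0.05, adjusted p = 6.13e-10) and in Tek_Cre against No_Cre (log2 fold change 0.44 ± 0.05, adjusted p = 1.43e-07). The difference between the Cre groups was small (log2 fold change 0.11 ± 0.05, adjusted p = 0.0449) and was lost in 8 of 20 alternative settings. Cyp51, the lanosterol demethylase, had 32.8, 39.5, 34.4 and 31.3 CPM in the Prx1_Cre libraries, 33.9, 32.7, 29.8 and 27.8 CPM in the Tek_Cre libraries and 24.8, 27.1, 27.2 and 26.7 CPM in the No_Cre libraries. It too was higher in each Cre group without overlap (log2 fold change 0.38 ± 0.07, adjusted p = 4.78e-05 in Prx1_Cre; log2 fold change 0.23 ± 0.08, adjusted p = 0.0129 in Tek_Cre), the Tek_Cre call being lost when Tek_Cre replicate 1 (adjusted p = 0.0733) or No_Cre replicate 1 (adjusted p = 0.0571) was left out. Sc5d, the sterol C5 desaturase, rose to 26.1 ± 1.64 CPM in Prx1_Cre and 23.3 ± 1.184 CPM in Tek_Cre against 20.1 ± 0.949 CPM in No_Cre, and the Tek_Cre call was lost without No_Cre replicate 1 (adjusted p = 0.0517). Nsdhl, which removes methyl groups from the sterol ring, went the other way, at 20.8 ± 1.67 CPM in Prx1_Cre and 24.0 ± 1.36 CPM in Tek_Cre against 28.4 ± 1.37 CPM in No_Cre, and fell in both (-0.44 ± 0.07 and -0.25 ± 0.07 on the log2 scale).

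Lss, Hsd17b7 and Tm7sf2 set the Cre groups apart. Lss, which closes squalene epoxide into lanosterol (chromosome 10, 76531588 to 76557138, ENSMUSG00000033105.12), had 36.3, 34.7, 34.3 and 38.3 CPM in the Prx1_Cre libraries, 19.3, 20.6, 24.5 and 23.5 CPM in the Tek_Cre libraries and 22.8, 25.3, 25.3 and 22.1 CPM in the No_Cre libraries. The Prx1_Cre libraries lay above all others, and Tek_Cre and No_Cre overlapped. Lss was 1.502-fold higher in Prx1_Cre than in No_Cre (log2 fold change 0.59 ± 0.07, adjusted p = 9.13e-08) and 1.63-fold higher than in Tek_Cre (log2 fold change 0.71 ± 0.07, adjusted p = 5.93e-09). Hsd17b7, the ketosteroid reductase of the demethylation steps (chromosome 1, 169949535 to 169969241, ENSMUSG00000026675.12), stood at 10.4, 11.1, 10.3 and 13.3 CPM in the Prx1_Cre libraries, 4.34, 6.66, 5.42 and 4.91 CPM in the Tek_Cre libraries and 8.35, 9.11, 9.24 and 10.9 CPM in the No_Cre libraries. Tek_Cre was lowest without overlap, and Prx1_Cre and No_Cre overlapped. It fell 1.79-fold in Tek_Cre relative to No_Cre (log2 fold change -0.84 ± 0.13, adjusted p = 5.3e-06) and was 2.15-fold higher in Prx1_Cre than in Tek_Cre (log2 fold change 1.11 ± 0.12, adjusted p = 1.63e-08). Against No_Cre the rise in Prx1_Cre was weak (log2 fold change 0.26 ± 0.11, adjusted p = 0.0346) and was lost in 6 of 20 alternative settings (adjusted p = 0.0510 to 0.170), among them those without Prx1_Cre replicate 2 or 4 and without No_Cre replicate 1, 2 or 3. Tm7sf2, a sterol C14 reductase, was at a low 4.95 ± 0.170 CPM in Prx1_Cre and 2.59 ± 0.467 CPM in Tek_Cre against 3.60 ± 0.600 CPM in No_Cre; it rose in Prx1_Cre (log2 fold change 0.47 ± 0.13, adjusted p = 0.00308) and fell in Tek_Cre (log2 fold change -0.45 ± 0.15, adjusted p = 0.0172). The Tek_Cre call was lost when Tek_Cre replicate 2 (adjusted p = 0.0544) or No_Cre replicate 3 (adjusted p = 0.0651) was left out, and Tm7sf2 shares 532 exon bases with Vps51 on the same strand.

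Calls past 1.5-fold between the Cre groups held in every alternative for Hsd17b7, ended with DESeq2 for Tm7sf2 (adjusted p = 0.121), and ended for Lss in 7 of 20 alternatives, including those without Prx1_Cre replicate 1 or 4 and without Tek_Cre replicate 1 or 2. Msmo1, the sterol C4 methyl oxidase, resembled Hmgcs1 in order, with 24.5, 24.9, 26.4 and 23.5 CPM in the Prx1_Cre libraries, 32.0, 30.0, 30.2 and 27.1 CPM in the Tek_Cre libraries and 22.8, 22.4, 23.6 and 25.3 CPM in the No_Cre libraries. Tek_Cre was highest without overlap. Msmo1 rose in Tek_Cre against No_Cre (log2 fold change 0.34 ± 0.07, adjusted p = 0.000132) and was lower in Prx1_Cre than in Tek_Cre (log2 fold change -0.26 ± 0.07, adjusted p = 0.000841). Fdft1, squalene synthase, fell in Prx1_Cre to 19.1 ± 0.818 CPM, against 22.1 ± 0.391 CPM in No_Cre. Ebp, the sterol isomerase, was not called in any of the 3 comparisons, at 63.9 ± 1.48 CPM in Prx1_Cre, 62.2 ± 1.84 CPM in Tek_Cre and 62.2 ± 5.05 CPM in No_Cre. Dhcr7, a reductase at the end of the pathway, was called only in Prx1_Cre against Tek_Cre (log2 fold change 0.21 ± 0.06, adjusted p = 0.00142).

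**Figure D3:**
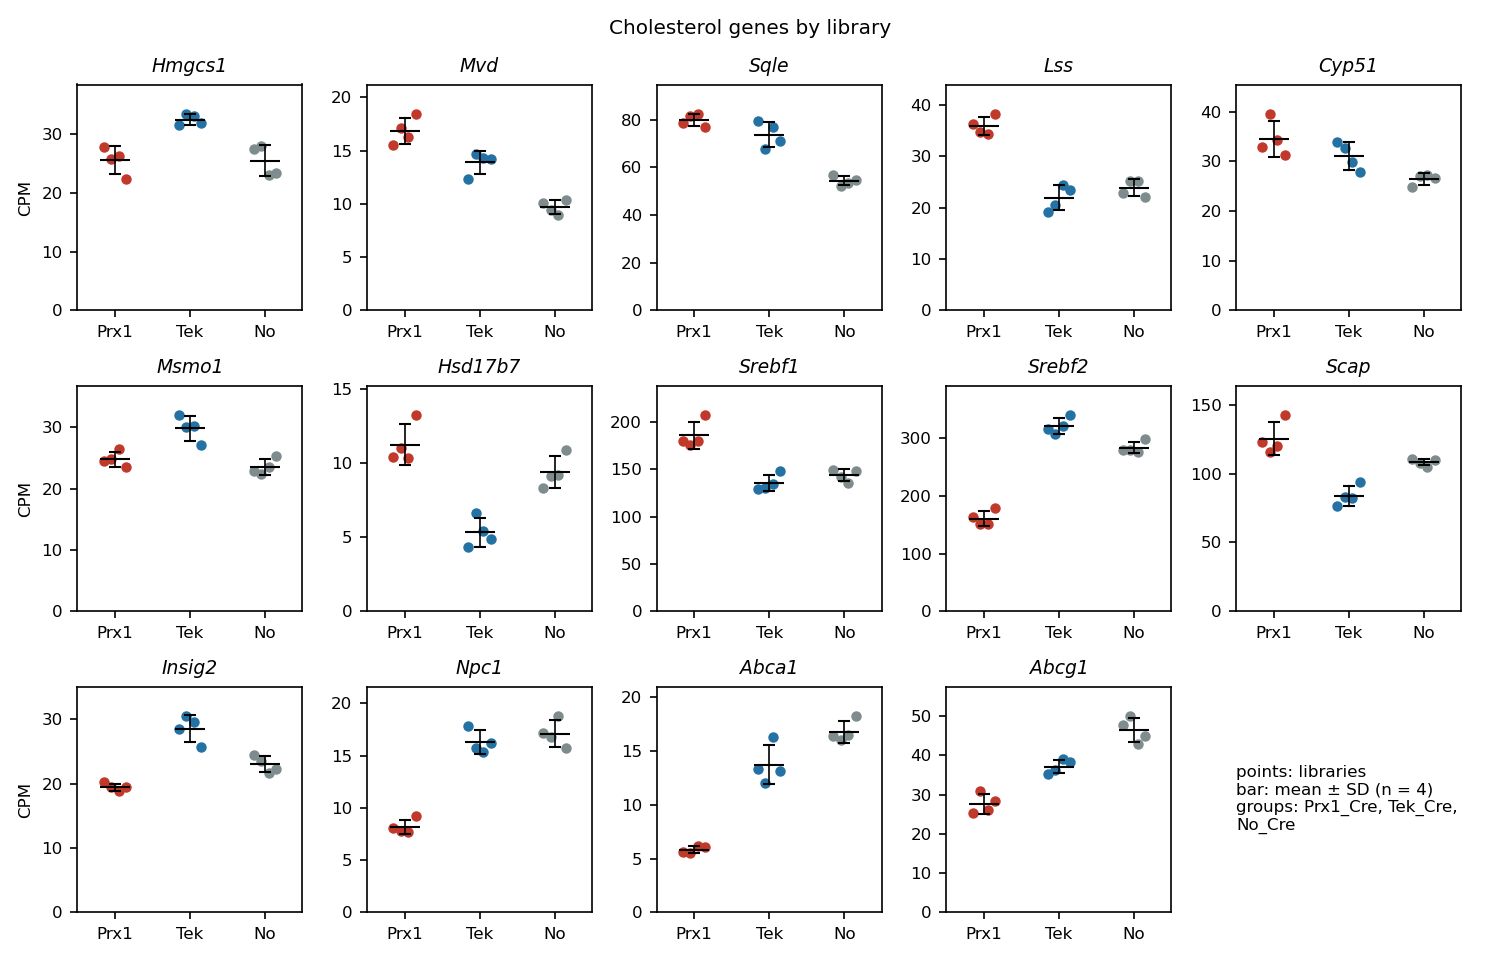
CPM per library (vertical axes from 0) of 14 cholesterol genes in Prx1_Cre, Tek_Cre and No_Cre, with 1 point per library and the mean ± SD of 4 libraries as bars. Srebf2, Npc1, Abca1 and Abcg1 are lowest in Prx1_Cre, Hmgcs1 and Msmo1 highest in Tek_Cre, and Hsd17b7 lowest in Tek_Cre.

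Promoters of 6 of these genes are shown because SREBP proteins bind sterol regulatory elements beside NF-Y and Sp1 sites, and because these genes stand for the different orders of the groups: Hmgcs1 was highest in Tek_Cre, Mvd rose in both Cre groups, Lss and Hsd17b7 differed between the Cre groups, and Srebf2 and Abca1 were lowest in Prx1_Cre. Each run is the 200 bases before the gene start in RefSeq, 5′ to 3′ on the gene's strand of GRCm38.p6. Capitals mark exact matches, on either strand, of the sterol element TCACNCCAC, the NF-Y box CCAAT and the Sp1 box GGGCGG. The positions are Hmgcs1 at chr13:119690151-119690350, plus strand; Mvd at chr8:122443423-122443622, minus strand; Lss at chr10:76531405-76531604, plus strand; Hsd17b7 at chr1:169969206-169969405, minus strand; Srebf2 at chr15:82147069-82147268, plus strand; Abca1 at chr4:53159896-53160095, minus strand.
Hmgcs1: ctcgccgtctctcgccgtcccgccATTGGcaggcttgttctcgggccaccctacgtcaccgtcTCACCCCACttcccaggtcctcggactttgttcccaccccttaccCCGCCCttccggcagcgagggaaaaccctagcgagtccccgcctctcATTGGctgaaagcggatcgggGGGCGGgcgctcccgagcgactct
Mvd: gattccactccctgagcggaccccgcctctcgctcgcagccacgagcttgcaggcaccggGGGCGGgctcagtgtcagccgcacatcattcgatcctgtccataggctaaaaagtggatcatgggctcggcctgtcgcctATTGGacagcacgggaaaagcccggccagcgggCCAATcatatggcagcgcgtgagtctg
Lss: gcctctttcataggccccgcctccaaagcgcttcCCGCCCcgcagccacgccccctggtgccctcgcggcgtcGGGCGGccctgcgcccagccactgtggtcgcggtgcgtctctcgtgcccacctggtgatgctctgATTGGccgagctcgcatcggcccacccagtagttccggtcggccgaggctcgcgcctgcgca
Hsd17b7: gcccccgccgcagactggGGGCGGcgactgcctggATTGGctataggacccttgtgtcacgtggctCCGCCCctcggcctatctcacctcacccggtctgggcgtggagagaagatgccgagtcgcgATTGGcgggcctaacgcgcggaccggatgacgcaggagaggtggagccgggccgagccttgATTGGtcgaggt
Srebf2: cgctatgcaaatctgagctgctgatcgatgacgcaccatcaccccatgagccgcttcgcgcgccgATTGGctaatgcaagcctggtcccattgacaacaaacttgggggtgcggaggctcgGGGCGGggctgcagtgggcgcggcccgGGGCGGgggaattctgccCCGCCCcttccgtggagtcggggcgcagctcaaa
Abca1: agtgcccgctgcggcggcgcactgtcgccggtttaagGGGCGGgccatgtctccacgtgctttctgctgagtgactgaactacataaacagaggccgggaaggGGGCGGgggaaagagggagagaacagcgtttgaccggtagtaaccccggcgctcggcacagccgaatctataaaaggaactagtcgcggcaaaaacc

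In the full windows, from 250 bases before to 50 after the start, 23 of the 29 genes had a sequence. The letters TCACNCCAC were in 1 of them, Hmgcs1, 137 bases before the start, beside 1.44% of all 27025 genes with a window. CCAAT was in 20 of the 23 genes, and in 14 of the 15 synthesis enzymes, beside 41.1% of all genes. GGGCGG was in 22 of the 23, beside 38.2% of all genes. Abca1 alone of the 6 promoters shown had no CCAAT in its 200 bases. These are matches of letters, not shown to be bound, and the missing letters in other windows say nothing of a factor.

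Of the regulators, the SREBP genes moved in opposite directions in Prx1_Cre. Srebf2 (chromosome 15, 82147181 to 82205379, ENSMUSG00000022463.7) had 162, 151, 150.2 and 178 CPM in the Prx1_Cre libraries, 315, 306, 321 and 339 CPM in the Tek_Cre libraries and 279, 278, 276 and 297 CPM in the No_Cre libraries. Every Prx1_Cre library lay below every other library, and Tek_Cre lay above No_Cre without overlap. Srebf2 fell 1.76-fold in Prx1_Cre against No_Cre (log2 fold change -0.82 ± 0.05, adjusted p = 2.79e-13) and was 1.997-fold lower than in Tek_Cre (log2 fold change -0.998 ± 0.05, adjusted p = 5.12e-15), and it rose slightly in Tek_Cre against No_Cre (log2 fold change 0.18 ± 0.05, adjusted p = 0.00282). Srebf1 (chromosome 11, 60199089 to 60222581, ENSMUSG00000020538.15) had 180.3, 176, 180.4 and 208 CPM in the Prx1_Cre libraries, 129.7, 131, 135 and 148 CPM in the Tek_Cre libraries and 149, 143, 136 and 149 CPM in the No_Cre libraries. Prx1_Cre was highest without overlap, and Tek_Cre and No_Cre overlapped. Srebf1 rose in Prx1_Cre against No_Cre (log2 fold change 0.37 ± 0.05, adjusted p = 7.5e-07) and was higher than in Tek_Cre (log2 fold change 0.45 ± 0.05, adjusted p = 3.18e-08), while Tek_Cre against No_Cre gave -0.08 ± 0.05 (adjusted p = 0.191). Per length, the ratio of Srebf1 to Srebf2 was 1.42 to 1.53 in the Prx1_Cre libraries, 0.525 to 0.556 in Tek_Cre and 0.627 to 0.683 in No_Cre. Srebf1 was thus the more abundant of the pair in Prx1_Cre and Srebf2 in the other groups.

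Scap, the escort of the SREBP proteins, had 123, 116, 120.1 and 143 CPM in the Prx1_Cre libraries, 76.4, 83.3, 82.6 and 93.9 CPM in the Tek_Cre libraries and 110.5, 108, 105 and 109.8 CPM in the No_Cre libraries. The groups did not overlap, with Prx1_Cre highest and Tek_Cre lowest. Scap rose in Prx1_Cre against No_Cre (log2 fold change 0.21 ± 0.06, adjusted p = 0.00252), a call lost with upper-quartile factors (adjusted p = 0.0744), was lower in Tek_Cre than in No_Cre (log2 fold change -0.36 ± 0.06, adjusted p = 2.02e-05), and was 1.49-fold higher in Prx1_Cre than in Tek_Cre. The INSIG genes encode proteins that retain SCAP. Insig2 stood at 20.2, 19.5, 18.8 and 19.4 CPM in the Prx1_Cre libraries, 28.5, 30.5, 29.5 and 25.7 CPM in the Tek_Cre libraries and 24.4, 23.6, 21.7 and 22.3 CPM in the No_Cre libraries. Here Prx1_Cre was lowest and Tek_Cre highest, without overlap. Insig2 fell in Prx1_Cre against No_Cre (log2 fold change -0.24 ± 0.07, adjusted p = 0.00226), rose in Tek_Cre against No_Cre (log2 fold change 0.31 ± 0.07, adjusted p = 0.000456) and differed by -0.55 ± 0.07 between Prx1_Cre and Tek_Cre. Insig1, itself a target of SREBP, was at 17.1 ± 0.929 CPM in Prx1_Cre and 22.02 ± 0.436 CPM in Tek_Cre against 17.5 ± 0.821 CPM in No_Cre (SD, n = 4 each). It rose in Tek_Cre against No_Cre (log2 fold change 0.33 ± 0.07, adjusted p = 0.000211), and in Prx1_Cre against No_Cre the change was -0.03 ± 0.07 (adjusted p = 0.688).

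All 3 genes of uptake and transport fell in Prx1_Cre against No_Cre, where 39.0% of all genes fell. In Tek_Cre against No_Cre their adjusted p were 0.985 for Stard4, 0.510 for Npc1 and 0.134 for Npc2. Npc1 encodes the lysosomal membrane protein that releases cholesterol taken up in lipoproteins (chromosome 18, 12189692 to 12236400, ENSMUSG00000024413.13). It had 8.04, 7.79, 7.65 and 9.21 CPM in the Prx1_Cre libraries, 17.9, 15.7, 15.3 and 16.2 CPM in the Tek_Cre libraries and 17.1, 16.8, 18.8 and 15.7 CPM in the No_Cre libraries. Every Prx1_Cre library lay below every other library, and Tek_Cre and No_Cre overlapped. Npc1 was 2.10-fold lower in Prx1_Cre than in No_Cre (log2 fold change -1.07 ± 0.08, adjusted p = 5.45e-11) and 2.0-fold lower than in Tek_Cre (log2 fold change -1.0 ± 0.09, adjusted p = 2.23e-10). Tek_Cre against No_Cre gave -0.07 ± 0.08 (adjusted p = 0.510). The gene shares 511 exon bases with Rmc1 on the other strand. Npc2, the soluble lysosomal partner that hands sterol to NPC1, fell less, to 112 ± 3.28 CPM in Prx1_Cre, with 144 ± 4.87 CPM in Tek_Cre and 137 ± 2.83 CPM in No_Cre (log2 fold change -0.29 ± 0.04, adjusted p = 3.76e-07 against No_Cre). Stard4, a cytosolic sterol carrier, fell to 18.01 ± 1.25 CPM in Prx1_Cre, with 24.9 ± 1.03 CPM in Tek_Cre and 24.9 ± 1.399 CPM in No_Cre (log2 fold change -0.47 ± 0.07, adjusted p = 1.21e-06 against No_Cre).

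The exporters fell in both Cre groups and most in Prx1_Cre. Abca1, which loads cholesterol onto lipid-poor apolipoproteins (chromosome 4, 53030787 to 53159895, ENSMUSG00000015243.4), had 5.59, 5.53, 6.14 and 6.09 CPM in the Prx1_Cre libraries, 13.4, 12.1, 16.4 and 13.2 CPM in the Tek_Cre libraries and 16.4, 16.03, 16.5 and 18.3 CPM in the No_Cre libraries. The Prx1_Cre values were lowest without overlap, and a single Tek_Cre library reached into the range of No_Cre. Abca1 fell 2.87-fold in Prx1_Cre against No_Cre (log2 fold change -1.52 ± 0.09, adjusted p = 5.32e-13), the largest change of the 29 genes in any of the 3 comparisons. It fell in Tek_Cre against No_Cre by less (log2 fold change -0.28 ± 0.09, adjusted p = 0.00878) and was 2.36-fold lower in Prx1_Cre than in Tek_Cre (log2 fold change -1.24 ± 0.10, adjusted p = 3.79e-11). Abcg1, which exports cholesterol to mature lipoprotein particles (chromosome 17, 31057675 to 31117988, ENSMUSG00000024030.6), had 25.2, 30.8, 26.2 and 28.5 CPM in the Prx1_Cre libraries, 35.2, 36.2, 39.0 and 38.2 CPM in the Tek_Cre libraries and 47.9, 50.04, 43.0 and 44.9 CPM in the No_Cre libraries. The 3 groups did not overlap, in the order Prx1_Cre, Tek_Cre, No_Cre from low to high. Abcg1 fell in Prx1_Cre (log2 fold change -0.75 ± 0.07, adjusted p = 2.95e-10) and in Tek_Cre (log2 fold change -0.32 ± 0.07, adjusted p = 0.000227), both against No_Cre, and its call past 1.5-fold in Prx1_Cre ended with DESeq2 (adjusted p = 0.0874). Soat1, which stores cholesterol as esters, was not called in any of the 3 comparisons, with 41.9 ± 3.13 CPM in Prx1_Cre, 42.6 ± 2.69 CPM in Tek_Cre and 42.6 ± 2.69 CPM in No_Cre and changes of -0.02 ± 0.06, 0.00 ± 0.06 and -0.02 ± 0.06. Macrophages, which are rich in ABCA1 and ABCG1, had summed markers of 84.1 to 87.8 CPM in Prx1_Cre and 40.4 to 43.9 CPM in Tek_Cre against 46.4 to 48.7 CPM in No_Cre. Of the 6 tested, 5 rose in Prx1_Cre against No_Cre, where 36.7% of all genes rose, and C1qb was not called. In Tek_Cre against No_Cre C1qb rose and 4 fell, where 26.4% of all genes rose and 26.5% fell. The part of these markers in the result was not tested.

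Levels of different genes were compared per length, as RPKM over the annotated exons. All annotated exons of a gene together can be longer than its longest protein-coding transcript. They were 5438 against 3299 bases for Npc2, 7184 against 5077 for Srebf2 and 4208 against 1382 for Fdps. The order of genes therefore depends on the length used, and the order given here holds for annotated exons only. In Prx1_Cre the highest of the 29 genes were Srebf1 (33.0 ± 2.57 RPKM), Ebp (27.7 ± 0.640 RPKM) and Srebf2 (22.3 ± 1.82 RPKM). In Tek_Cre they were Srebf2 (44.6 ± 1.98 RPKM), Ebp (26.9 ± 0.797 RPKM) and Npc2 (26.4 ± 0.895 RPKM), and in No_Cre Srebf2 (39.3 ± 1.36 RPKM), Ebp (26.9 ± 2.19 RPKM) and Srebf1 (25.6 ± 1.12 RPKM), the last of which did not differ from its neighbours Ebp and Npc2 beyond the spread. Pmvk stood at 18.6 ± 2.38 RPKM in Prx1_Cre, 16.1 ± 0.870 RPKM in Tek_Cre and 16.8 ± 0.206 RPKM in No_Cre. Close to it, Acat2 was at 16.9 ± 0.752 RPKM in Prx1_Cre, 16.3 ± 0.944 RPKM in Tek_Cre and 13.4 ± 0.826 RPKM in No_Cre, within the spread of Pmvk in both Cre groups and below it in No_Cre. The exporter Abca1 was at 0.563 ± 0.0313 RPKM in Prx1_Cre, 1.33 ± 0.177 RPKM in Tek_Cre and 1.62 ± 0.0966 RPKM in No_Cre, below Abcg1 in every group (3.79 ± 0.344, 5.09 ± 0.243 and 6.36 ± 0.429 RPKM in the same order).

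**Figure D4:**
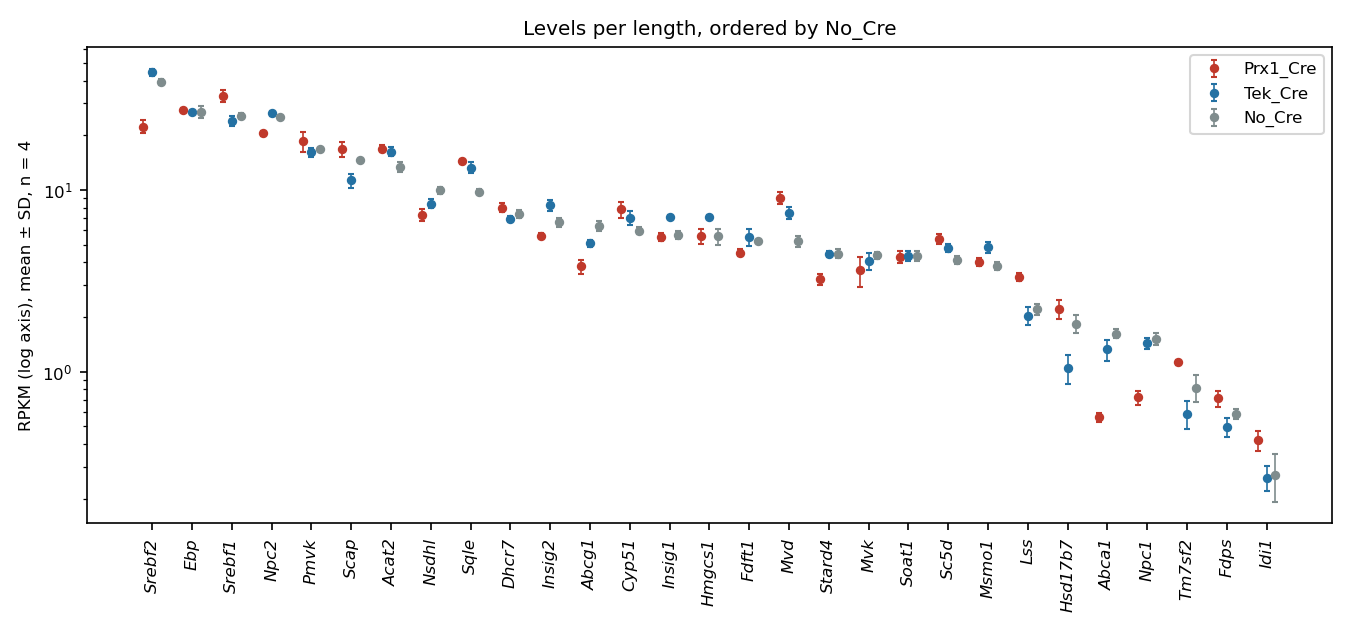
RPKM (log axis), mean ± SD of 4 libraries, of the 29 genes ordered by their level in No_Cre, with Prx1_Cre, Tek_Cre and No_Cre side by side for each gene. Srebf2 leads in Tek_Cre and No_Cre and Srebf1 in Prx1_Cre, and Fdps and Idi1 are lowest in No_Cre.

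Other genes of sterol and lipid metabolism, in 7 lists of 61 genes, were set beside the 29. Of them 58 were tested, and 33 rose and 15 fell in Prx1_Cre against No_Cre, 15 and 17 in Tek_Cre against No_Cre, and 28 and 14 in Prx1_Cre against Tek_Cre. Of all genes tested, 36.7% rose and 39.0% fell in Prx1_Cre against No_Cre, 26.4% and 26.5% in Tek_Cre against No_Cre, and 37.8% and 39.8% in Prx1_Cre against Tek_Cre; the counts of each list are descriptions beside these shares. Ch25h, Hsd3b7 and Idi2 did not pass the filter on low counts. In Prx1_Cre against No_Cre, genes of SREBP processing and of sterol-regulated degradation numbered 8 tested, of which 7 rose and the other was not called. Among them was the ubiquitin ligase Rnf139, at 60.0 ± 9.66 CPM in Prx1_Cre against 42.0 ± 2.75 CPM in No_Cre. In the isoprenoid branches 8 of the 10 tested rose and the other 2 were not called, led by the subunits of the enzyme that makes the ubiquinone side chain, Pdss1 (log2 fold change 0.92 ± 0.08, adjusted p = 7.64e-10) and Pdss2 (log2 fold change 0.67 ± 0.08, adjusted p = 2.38e-08). In Tek_Cre against No_Cre the same lists split, as 3 of 8 genes rose and 1 fell in the first and 3 of 10 rose and 4 fell in the second. Rnf139 (0.43 ± 0.09), Ggps1, which makes geranylgeranyl pyrophosphate (0.36 ± 0.11), and Pdss2 (0.33 ± 0.08) were called higher on the log2 scale. Between the Cre groups Pdss1 (1.23 ± 0.09) and Dhdds (0.65 ± 0.04) led the isoprenoid list in Prx1_Cre over Tek_Cre.

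For the fatty acid targets of SREBP, 5 rose and 3 fell of 10 in Prx1_Cre against No_Cre and 2 rose and 3 fell of 10 in Tek_Cre against No_Cre. The desaturase Scd1 was at 11.0, 10.8, 11.3 and 13.2 CPM in Prx1_Cre, 0.745, 0.666, 0.858 and 0.413 CPM in Tek_Cre and 2.55, 2.34, 3.05 and 3.14 CPM in No_Cre. It rose in Prx1_Cre (log2 fold change 2.07 ± 0.13, adjusted p = 3.72e-13) and fell in Tek_Cre (log2 fold change -2.06 ± 0.21, adjusted p = 1.83e-08), while its relative Scd2, far more abundant, was at 201 ± 3.83, 198 ± 4.52 and 202 ± 4.94 CPM in the same order and was not called in any of the 3 comparisons. The elongase Elovl6 fell in both Cre groups against No_Cre (-0.61 ± 0.08 in Prx1_Cre and -0.34 ± 0.08 in Tek_Cre). Acss2, which makes acetyl-CoA, fell against No_Cre in Tek_Cre (log2 fold change -0.78 ± 0.04, adjusted p = 4.27e-13) and in Prx1_Cre (-0.58 ± 0.04). The desaturase Fads1 was lower in Prx1_Cre than in Tek_Cre (-0.73 ± 0.04). Among liver X receptors and their targets, 2 rose and 4 fell of 8 in Prx1_Cre against No_Cre. The small GTPase Arl4c fell from a low level, at 0.561 ± 0.130 against 2.26 ± 0.307 CPM (log2 fold change -1.998 ± 0.20, adjusted p = 4.37e-09). It had 60 counts in Prx1_Cre and 218 in No_Cre over 4 libraries each. The receptor partner Rxra fell too, at 9.93 ± 0.741 against 19.6 ± 1.78 CPM (log2 fold change -0.98 ± 0.08, adjusted p = 8.73e-11). Of the receptors themselves, Nr1h2 was at 122 ± 9.92 against 142 ± 6.80 CPM and Nr1h3 at 2.496 ± 0.332 against 2.49 ± 0.330 CPM, Nr1h2 having fallen (-0.22 ± 0.05) and Nr1h3 not being called (adjusted p = 0.987). In Tek_Cre against No_Cre, Nr1h3 fell (log2 fold change -0.84 ± 0.20, adjusted p = 0.000980), as did the transporter Abca2 (-0.40 ± 0.08). Abca2 also fell in Prx1_Cre against No_Cre (-0.54 ± 0.07). Scd2 and Nr1h2 were chosen after their values were seen.

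In the list of uptake receptors and ester hydrolysis 5 rose and 3 fell of 9 in Prx1_Cre against No_Cre. Vldlr, a lipoprotein receptor, had 24.8, 20.5, 23.6 and 19.6 CPM in Prx1_Cre, 79.8, 85.6, 82.1 and 74.8 CPM in Tek_Cre and 63.3, 64.0, 63.4 and 58.7 CPM in No_Cre. It fell in Prx1_Cre (log2 fold change -1.49 ± 0.07, adjusted p = 9.15e-16) and rose in Tek_Cre (log2 fold change 0.37 ± 0.06, adjusted p = 2.14e-05), both against No_Cre. The fatty acid and lipoprotein receptor Cd36 was rare, with 359 counts in Prx1_Cre, 1 in Tek_Cre and 36 in No_Cre over 4 libraries each. Scarb2, a lysosomal receptor, rose against No_Cre in Tek_Cre (0.54 ± 0.06) and in Prx1_Cre (0.30 ± 0.06). For intracellular sterol transfer 3 rose and 4 fell of 8 in Prx1_Cre against No_Cre. There Tmem97, a membrane protein that binds NPC1, rose (36.0 ± 0.688 against 18.03 ± 1.41 CPM). Gramd1a, which carries sterol to the endoplasmic reticulum, fell in that comparison (104 ± 6.15 against 168 ± 5.31 CPM) and by less in Tek_Cre against No_Cre (log2 fold change -0.26 ± 0.05). In Tek_Cre against No_Cre, Tmem97 (-0.41 ± 0.07) and the oxysterol-binding protein Osbp (-0.40 ± 0.04) fell, and Gramd1c was lower in Prx1_Cre than in Tek_Cre (-0.68 ± 0.12). Osbp fell in Prx1_Cre against No_Cre as well (-0.42 ± 0.04). In the last list 3 rose and 1 fell of 5 in Prx1_Cre against No_Cre, with the oxysterol hydroxylase Cyp7b1 lower (1.99 ± 0.613 against 6.37 ± 0.357 CPM). Lbr, which shares the C14 reductase step with Tm7sf2, was higher in Prx1_Cre without overlap (624, 631, 628 and 633 against 353, 345, 362 and 354 CPM in No_Cre; log2 fold change 0.83 ± 0.03, adjusted p = 2.65e-16) and was at 357 ± 9.78 CPM in Tek_Cre. Cyp27a1, which makes an oxysterol, was at 1.90 ± 0.345 CPM in Prx1_Cre, 6.33 ± 0.312 CPM in Tek_Cre and 2.37 ± 0.372 CPM in No_Cre, and rose in Tek_Cre against No_Cre (log2 fold change 1.41 ± 0.14, adjusted p = 1.22e-08).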

How the data were processed

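RNA-seq libraries (SMARTer Ultra Low Input with Nextera XT, per the labels' protocols) were deposited by the authors as raw counts of reads per gene, 1 column for each of 12 libraries. Trim Galore 0.4.4, STAR 2.5.3a, HTSeq 0.9.1, DESeq2 1.18.1 and GRCm38 are named in the submitters' processing notes; the annotation release and strand setting are not given in the sources used here. Gene identifiers were matched to GENCODE M21 on GRCm38, and 48349 of 48795 had a symbol.

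Genes were filtered with filterByExpr, scaled by TMM and tested in 1 fit of 12 libraries with edgeR 4.0.16 (R 4.3.3; quasi-likelihood test, robust; glmTreat against 1.5-fold; Benjamini-Hochberg over 14756 genes). Standard errors are the size of the log2 fold change over the square root of F. The number of reads limits the precision of low genes, and the SD over 4 libraries covers counting error. The members, lists and tests were chosen with earlier results of these data known. Values per library were given for the 4 members most increased and the 4 most decreased in each comparison among those called with at least 5 CPM, and for Srebf1 and Srebf2; in other lists the 2 called genes with the largest change were named, except some that are not reported here. Similar transcripts were found with BLAST 2.17.0. Other scalings, filters, DESeq2 1.42.0, a replicate block and leaving out each library were tried. The fit was tested on simulated data.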

Additional observations from a re-analysis of the deposited data

Results flagged for a closer look

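A library stood apart from the other 3 of its group in 2 of 87 gene and group pairs examined, by a gap to its nearest neighbour above Dixon's critical value of 0.829; chance flags about 1 in 20 such groups. Srebf1 was at 208 CPM in Prx1_Cre replicate 4, where the other Prx1_Cre libraries lay between 176 and 180.4 CPM (ratio 0.866). Srebf2 was at 297 CPM in No_Cre replicate 4, where the other No_Cre libraries lay between 276 and 279 CPM (ratio 0.873). Leaving out either library ended no call of these genes in Prx1_Cre against No_Cre. Both are replicate 4 libraries, and Prx1_Cre replicate 4 also stood apart from its group over all genes, at a chi-square per degree of freedom of 11.5 to 14.3, against 1.80 to 2.22 among the other Prx1_Cre libraries.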

How the results depend on the processing

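Over 20 alternative settings no member reversed a called direction. In Prx1_Cre against No_Cre 17 of 21 member calls held in every setting, in Tek_Cre against No_Cre 13 of 16, and in Prx1_Cre against Tek_Cre 20 of 24. In Prx1_Cre against No_Cre the count of members higher past 1.5-fold was 0 with upper-quartile factors and with DESeq2, and the median change of the members was -0.0156 with upper-quartile factors, which moved the median of all genes to -0.11, and 0.047 to 0.092 leaving out each library. In Tek_Cre against No_Cre 1 member, Hsd17b7, was lower past 1.5-fold with relative log expression or upper-quartile factors, with no filter, without immunoglobulin genes, with only the 8 libraries compared and with the replicate block, and 0 to 1 leaving out each library; with no filter 1588 genes were higher and 1679 lower past 1.5-fold, against 1045 and 790. In Prx1_Cre against Tek_Cre the median was -0.0391 with upper-quartile factors, 0.076 with no filter, 0.062 with only the 8 libraries and 0.025 to 0.055 leaving out each library, and DESeq2 kept 1 member higher past 1.5-fold. The cause was not tested. Pairing by replicate number was not used, since not every same-number correlation of deviations passed 0.1: they ran from -0.032 to 0.20. As a hint from the data and not the design, 9 of 12 libraries correlated best with their own number. With the replicate block, 13 members were higher and 10 lower in Prx1_Cre against No_Cre, 10 and 6 in Tek_Cre against No_Cre, and 13 and 12 in Prx1_Cre against Tek_Cre. In the same fit 5532 of all genes were higher and 5886 lower in Prx1_Cre against No_Cre. The counts over all genes were 4177 and 4191 in Tek_Cre against No_Cre, and 5685 and 6006 in Prx1_Cre against Tek_Cre. Depth limits Idi1, Fdps and Tm7sf2 most.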
